A study of Mus musculus with 12 samples.

Results

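The 10 genes described here encode 7 matrix metalloproteinases (MMPs: Mmp2, Mmp3, Mmp9, Mmp11, Mmp12, Mmp13 and Mmp14) and 3 tissue inhibitors of metalloproteinases (TIMPs: Timp1, Timp2 and Timp3). They were taken by name from the 22630 gene rows of 12 RNA-sequencing libraries, and each of the 10 names matched a row. The libraries came from subcutaneous tumors of KCip53-1, a single mouse pancreatic cancer line that carries Ptf1a-Cre, TREp53R270H and R26rtTa/rtTa. Ptf1a-Cre acts in the pancreatic epithelium, so the injected cells and not the host make rtTa and, when doxycycline (dox) is given, p53R270H. The line had been sorted for dsRed, the reporter that comes with the transgene. The study grew its KCip53 lines in culture with dox.

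All 12 tumors grew from 500000 cells injected in 200 µl of 50% Matrigel into NSG mice 8 to 10 weeks old, a strain without mature lymphocytes that keeps its macrophages, neutrophils, fibroblasts and vessels. The 4 no-dox tumors never saw dox in vivo, the 4 plus-dox tumors had 36 days of dox (0.2 g/l in 5% sucrose water), and the 4 off-dox tumors had 33 days of dox followed by 3 days without it. These times are those of the labels. The study's text has dox removed once the tumors could be felt and names no day, so the length of the withdrawal rests on the labels. The comparisons ask how these genes differ between tumors kept on dox, tumors taken off it and tumors never given it in vivo. Since the line had been sorted for the reporter and grown with dox, no-dox tumors do not represent cells that never made p53R270H. Whether dox was present up to the injection is not stated in the study's text. There was no dox-treated tumor without the transgene, so dox itself, a known inhibitor of MMP enzymes, and p53R270H cannot be told apart. Each mouse bore 2 tumors, and since which tumors shared a mouse is not given, the tests treat every tumor as independent, which makes p-values too small wherever a pair of tumors came from 1 mouse. RNA came from whole tumors, so fewer cells of a type and less RNA per cell cannot be told apart, and reads from host and tumor cells were counted together.

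MMPs are zinc enzymes that cut collagens, laminins, elastin and other matrix proteins, as well as growth factors held in the matrix. Most are secreted as inactive precursors that another protease must cut, and TIMPs bind the active enzymes and block them. In pancreatic cancer, a tumor known for a dense fibrous stroma, MMPs and TIMPs are made both by carcinoma cells and by fibroblasts, macrophages and endothelial cells. A transcript level does not measure the activity of the enzyme.

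Gene counts summed to 19845923 in the shallowest tumor and 33137609 in the deepest, and the lowest count of any of the 10 genes in any tumor was 405, for Mmp13, so counting error was small beside the spread between tumors. Of the mapped reads, genes took 88.4% to 89.4% in no-dox, 82.2% to 87.1% in plus-dox and 81.1% to 85.8% in off-dox libraries. That share separated the no-dox tumors from the rest, no batch is given in the labels, and it was entered as a covariate in an alternative fit. Trp53, whose row would also take reads of the transgene, was at 47.7 ± 7.27, 48.5 ± 6.44 and 44.0 ± 1.72 RPKM (SD, n = 4) in no-dox, plus-dox and off-dox tumors. It did not tell the groups apart, and they are named as labelled. In the study's staining of tumors from KCip53 cells, dsRed was absent in no-dox and patchy in plus-dox tumors. Off-dox tumors had fewer positive cells, and a few cells kept the transgene on. By PCR and sequencing, the KCip53 lines tested held only the mutant p53 sequence. RPKM, the reads of a gene per kilobase of its exons, scaled to the mapped reads of the library, is the length-corrected scale on which genes are compared with each other below. Of the lists of cell type markers, 10 of 10 epithelial genes were detected, with a summed level of 1079 to 3137 RPKM.

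Plus-dox tumor 2 and off-dox tumor 4 stood apart from the other 10 tumors over the whole profile. Over 14548 genes, their root mean square difference from the other 11 tumors averaged 1.04 and 0.87 on the log2 scale, against 0.57 to 0.72 for the others. In these 2 tumors the epithelial list, which includes Epcam, Cdh1 and keratins, had a mean log2 CPM (counts scaled to library size) of 4.77 and 6.22, against 6.54 to 8.25 elsewhere, with none of its 10 genes at 0. Each result below that rests on these 2 tumors is given with and without them.

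On the RPKM scale 2 of the 3 inhibitors, Timp1 and Timp2, were the most abundant members by mean. Timp1 led with 231 ± 144 (SD, n = 12), followed by Timp2 with 190 ± 26.2 and Mmp14 with 150 ± 27.0, and each of these 3 exceeded 98.2% or more of all gene rows. Mmp2 (63.4 ± 22.3), Mmp3 (50.0 ± 23.7) and Timp3 (48.1 ± 14.5) formed a middle range, and Mmp9 (39.3 ± 50.1), Mmp12 (25.5 ± 17.6), Mmp13 (19.6 ± 19.9) and Mmp11 (12.6 ± 2.79) were lowest. Within single tumors some steps of this order held and others did not. Mmp14 was above Mmp2 in 12 of 12 tumors, and Timp2 was above Mmp14, and Mmp2 above Mmp3, in 11 of 12. Timp1 exceeded Timp2 in 5 of 12 tumors, Mmp3 exceeded Timp3 in 4 of 12, and Mmp13 exceeded Mmp11 in 5 of 12, so the order of these neighbors by mean was set by a minority of tumors.

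**Figure D1:**
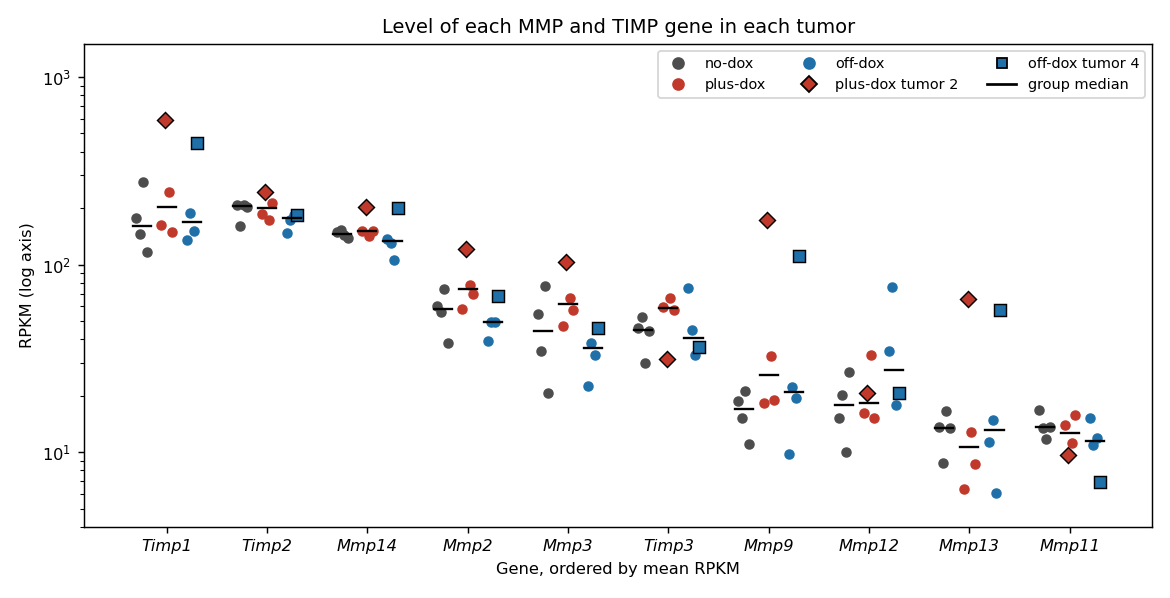
RPKM (log axis) of the 10 genes in each of the 12 tumors, with genes ordered by mean RPKM, groups by color and black bars at group medians. Plus-dox tumor 2 (diamond) and off-dox tumor 4 (square) were the 2 highest tumors for Mmp9 (173 and 111), Mmp13 (65.8 and 57.3), Mmp14 (202 and 200) and Timp1 (587 and 444), while the groups overlapped for every gene except Mmp3, whose off-dox values lay below its plus-dox values on this scale.

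No member passed the study's limits for differential expression in any pair of groups. A gene had to have an adjusted p below 0.1, to differ by more than 1.5-fold, to average more than 0.25 RPKM and to be longer than 250 bp, with edgeR's quasi-likelihood test and Benjamini-Hochberg adjustment over 17561 genes. For plus-dox against no-dox the count was 0 of 10 members, beside 0% of all genes tested, and 1 member had an unadjusted p under 0.05, beside 13.7% of all genes. For off-dox against no-dox it was 0 of 10, beside 1.34% of all genes (235 genes), with 1 member at an unadjusted p under 0.05 (20.4% of all genes). For off-dox against plus-dox it was 0 of 10, beside 0%, with 2 members at an unadjusted p under 0.05 (3.06% of all genes). DESeq2, the tool of the study, and limma-voom also called 0 members in each pair. Over all 17561 genes they called 128 and 112 for plus-dox against no-dox. They called 615 and 643 for off-dox against no-dox, and 6 and 0 for off-dox against plus-dox. With edgeR, a joint test of the 3 groups called 0 of 10 members and 0% of all genes. With DESeq2 and limma-voom the joint test called 1127 and 1229 genes and 0 members. Nor did any member have non-overlapping log2 CPM between groups, where 8.86% of all genes did so for plus-dox and no-dox, 11.5% for off-dox and no-dox, and 1.4% for off-dox and plus-dox.

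The size of the differences still varied widely among the genes. For plus-dox against no-dox, 9 of 10 members had a log2 fold change above 0, with a median of 0.44, beside 51.4% of genes above 0, and a median of 0.01, over the whole table. For off-dox against no-dox, 6 of 10 were above 0, with a median of 0.09, beside 50.7% of all genes. For off-dox against plus-dox, 9 of 10 were below 0, with a median of -0.20, beside 50.1% of all genes. The comparisons share tumors pairwise, so these counts are not independent of each other. Without plus-dox tumor 2 and off-dox tumor 4, the value of Mmp13 moved from 0.86 to -0.48 for plus-dox against no-dox, and that of Timp1 from 0.69 to 0.06. Mmp11 (-0.02) and Timp2 (-0.04) were then below 0 as well. The others were at 0.02 (Mmp14), 0.27 (Mmp2 and Mmp12), 0.29 (Mmp3), 0.51 (Mmp9) and 0.52 (Timp3). For off-dox against no-dox, Mmp9 (0.07), Mmp12 (1.27) and Timp3 (0.26) were then above 0 and the rest below. For off-dox against plus-dox, Mmp12 (0.99) and Mmp13 (0.22) were above 0 and the rest below.

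**Figure D2:**
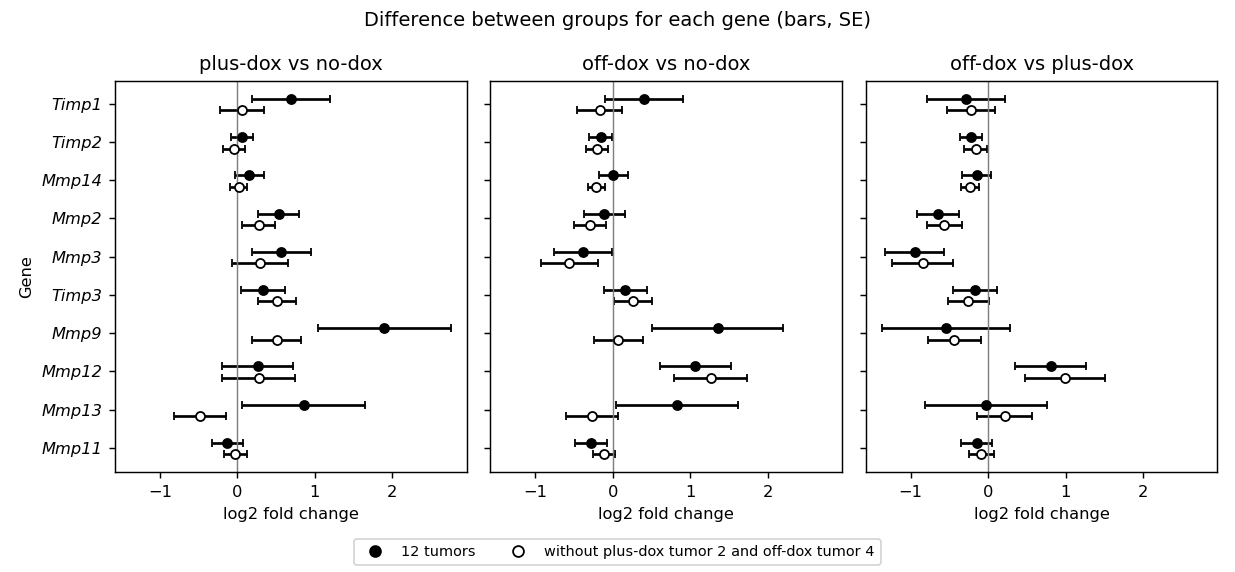
Log2 fold change (x axis, bars ± SE from edgeR) of each gene in the 3 comparisons, over 12 tumors (filled) and without plus-dox tumor 2 and off-dox tumor 4 (open). The largest value, 1.90 for Mmp9 in plus-dox against no-dox, became 0.51 without these tumors, and no value passed the limits in either fit.

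Among the gelatinases, which cut denatured collagen and the collagen of basement membranes, Mmp9 varied more from tumor to tumor than Mmp2. Mmp9 (chr2:164773751-164781346, mm9, as for all gene spans given) is known as a product of macrophages, neutrophils and osteoclasts as well as tumor cells. Its RPKM was 18.7, 15.3, 21.2 and 10.998 in no-dox tumors 1 to 4, 18.2, 173, 32.5 and 19.0 in plus-dox tumors 1 to 4, and 9.77, 22.2, 19.4 and 111 in off-dox tumors 1 to 4. One tumor of each dox-treated group was thus far above the rest, while the remaining 6 dox-treated tumors lay between 9.77 and 32.5 and overlapped the no-dox range. Its log2 fold change was 1.90 ± 0.86 (SE, unadjusted p = 0.0464, adjusted p = 0.36, edgeR) for plus-dox against no-dox and 1.36 ± 0.84 (adjusted p = 0.38) for off-dox against no-dox, and these were 0.51 ± 0.32 and 0.07 ± 0.32 without the 2 tumors that stood apart. The exact permutation test over 70 arrangements, two-sided and able to reach p = 0.029 at best, gave p = 0.14 and p = 0.49.

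Mmp2 (chr8:95351227-95377319), which membrane-bound Mmp14 activates with the help of Timp2, was at 60.1, 55.9, 74.1 and 38.0 RPKM in no-dox tumors, 57.9, 121, 78.1 and 69.8 in plus-dox tumors and 39.1, 49.6, 49.3 and 68.1 in off-dox tumors. Of the plus-dox tumors, 2 were above all no-dox tumors. Its log2 fold change was 0.54 ± 0.27 (SE, adjusted p = 0.39, edgeR) for plus-dox against no-dox, -0.11 ± 0.27 (adjusted p = 0.84) for off-dox against no-dox, and -0.65 ± 0.27 (unadjusted p = 0.032, adjusted p = 1) for off-dox against plus-dox. The exact permutation p of the last difference was 0.086. Without plus-dox tumor 2 and off-dox tumor 4 the 3 values were 0.27 ± 0.21, -0.29 ± 0.21 and -0.57 ± 0.22.

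The stromelysin Mmp3 (chr9:7445822-7455974), which cuts many matrix proteins and activates other MMP precursors, varied with Mmp2. It was at 54.2, 34.6, 77.1 and 20.8 RPKM in no-dox tumors, 46.8, 103, 65.9 and 57.6 in plus-dox tumors and 22.6, 38.4, 33.1 and 45.8 in off-dox tumors. The 4 off-dox tumors were below the 4 plus-dox tumors on the RPKM scale, but the groups overlapped in log2 CPM. The log2 fold change for off-dox against plus-dox was -0.95 ± 0.38 (SE, unadjusted p = 0.0287, adjusted p = 1, edgeR; exact permutation p = 0.057). Without plus-dox tumor 2 and off-dox tumor 4 it was -0.85 ± 0.39, and 3 of 10 members, Mmp2, Mmp3 and Mmp14, then had off-dox tumors below all plus-dox tumors in log2 CPM, beside 7.73% of all genes with groups that did not overlap. Against no-dox, Mmp3 had 0.57 ± 0.38 with dox and -0.38 ± 0.38 after its withdrawal, or 0.29 ± 0.36 and -0.56 ± 0.37 without these tumors.

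By rank, Mmp2 and Mmp3 were also the pair of members that varied most closely together from tumor to tumor. Across the 12 tumors their log2 CPM had a Pearson r of 0.95 and a Spearman rho of 0.97 (permutation p = 1e-05 for both, the smallest that 100000 resamples can give, adjusted p = 0.00045 over 45 pairs of members). The r was 0.97 without plus-dox tumor 2 and off-dox tumor 4, 0.93 without the 2 tumors farthest from the median of Mmp2, and 0.93 for deviations from the group means. Both genes had Col3a1, the chain of type III collagen, as the gene most like them among 12693 genes with a mean RPKM over 1, with r = 0.97 for Mmp2 and r = 0.96 for Mmp3. The next were Gas1 (0.97) and Bcat1 (0.96) for Mmp2, and Mmp2 itself (0.95) and Rarres2 (0.95), which encodes the chemoattractant chemerin, for Mmp3. These r values compare libraries of the same 12 tumors and are a description.

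Mmp13 (chr9:7272514-7283333), the interstitial collagenase of the mouse, was highest in the same 2 tumors as Mmp9. It was at 13.6, 8.70, 16.5 and 13.4 RPKM in no-dox tumors, 6.34, 65.8, 12.8 and 8.67 in plus-dox tumors and 11.3, 14.9, 6.07 and 57.3 in off-dox tumors. The highest no-dox value thus exceeded 3 of the 4 values in each dox-treated group. The log2 fold change was 0.86 ± 0.79 (SE, adjusted p = 0.61, edgeR) for plus-dox against no-dox and 0.83 ± 0.79 (adjusted p = 0.57) for off-dox against no-dox, and without the 2 tumors it was -0.48 ± 0.33 and -0.27 ± 0.33. Grem1, which encodes the BMP antagonist gremlin 1, was the gene most like it (r = 0.99 over 12 tumors, 0.96 over the other 10).

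Mmp14 (chr14:55050441-55060095) encodes a collagenase anchored in the cell membrane. It was at 149, 153, 144 and 139 RPKM in no-dox tumors, 151, 202, 142 and 150 in plus-dox tumors and 137, 131, 105 and 200 in off-dox tumors. Apart from plus-dox tumor 2 and off-dox tumor 4 it was among the steadier genes: its pooled within-group SD was 0.28 on the log2 scale over 12 tumors, above that of 56.2% of genes, and 0.11 over the other 10, above that of 10.4%. Its log2 fold change was 0.16 ± 0.19 (SE, adjusted p = 0.70, edgeR) for plus-dox against no-dox and 0.01 ± 0.19 (adjusted p = 0.98) for off-dox against no-dox. The latter was -0.22 ± 0.11 without the 2 tumors, and the 3 remaining off-dox tumors, at 105 to 137 RPKM, were then below the 4 no-dox tumors in log2 CPM, which made Mmp14 the 1 member of 10 without overlap, beside 18.2% of all genes. Igfbp3, which encodes a carrier of insulin-like growth factors, was the gene most like it (r = 0.97, and 0.90 over the other 10 tumors).

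Mmp12 (chr9:7347374-7360461), the macrophage elastase, had a different set of high tumors. It was at 15.3, 20.2, 10.0 and 26.8 RPKM in no-dox tumors, 16.2, 20.6, 33.0 and 15.2 in plus-dox tumors and 34.5, 76.3, 17.8 and 20.6 in off-dox tumors. Off-dox tumors 1 and 2 were above all no-dox tumors, while off-dox tumors 3 and 4 were within their range. The log2 fold change for off-dox against no-dox was 1.07 ± 0.46 (SE, unadjusted p = 0.0395, adjusted p = 0.22, edgeR; exact permutation p = 0.17), and it was 1.27 ± 0.47 without plus-dox tumor 2 and off-dox tumor 4 and 0.45 without off-dox tumor 2. For off-dox against plus-dox it was 0.81 ± 0.46 (adjusted p = 1). The macrophage markers did not follow it: their summed level was 2100 to 3215 RPKM in no-dox, 2521 to 3025 in plus-dox and 2347 to 4171 in off-dox tumors, with 10 of 10 genes detected, and the r of Mmp12 with that list was -0.32 (-0.33 over the other 10 tumors).

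Mmp11 (chr10:75385969-75395208), or stromelysin 3, which is cut inside the cell by furin and is known from stroma around carcinomas, was the lowest and among the less variable members. It was at 16.8, 13.4, 11.7 and 13.6 RPKM in no-dox tumors, 14.0, 9.60, 11.2 and 15.8 in plus-dox tumors and 15.2, 10.98, 11.9 and 6.97 in off-dox tumors. Its log2 fold change was -0.13 ± 0.20 (SE, adjusted p = 0.78, edgeR) for plus-dox and -0.28 ± 0.20 (adjusted p = 0.46) for off-dox, each against no-dox, and -0.02 ± 0.15 and -0.11 ± 0.15 without the 2 tumors that stood apart. Plus-dox tumor 2 and off-dox tumor 4 were its 2 lowest tumors, the reverse of Mmp9, and its r with Mmp9 was -0.83 (rho = -0.80, permutation p = 0.0017, adjusted p = 0.012 over 45 pairs), or -0.59 over the other 10 tumors.

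Of the inhibitors, Timp1 (chrX:20447292-20451863), a secreted inhibitor that cytokines induce, varied most. It was at 177, 145, 275 and 117 RPKM in no-dox tumors, 162, 587, 242 and 150 in plus-dox tumors and 136, 188, 150 and 444 in off-dox tumors. Off-dox tumor 4 and plus-dox tumor 2 were the only tumors above the highest no-dox tumor. The log2 fold change was 0.69 ± 0.51 (SE, adjusted p = 0.53, edgeR) for plus-dox against no-dox and 0.40 ± 0.50 (adjusted p = 0.68) for off-dox against no-dox, and 0.06 ± 0.29 and -0.17 ± 0.29 without the 2 tumors. Timp1 followed Mmp9, the enzyme whose precursor it binds, more closely than any other member did over the 12 tumors, with r = 0.95 (rho = 0.92, permutation p = 5e-05, adjusted p = 0.0011). Over the other 10 tumors r was 0.80, below the 0.84 of Mmp9 with Mmp2 and the 0.82 of Mmp9 with Mmp3.

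Timp2 (chr11:118162375-118216725), which takes part in the activation of Mmp2 on the cell surface, was the steadiest member over the 12 tumors, with a pooled within-group SD of 0.20 on the log2 scale, above that of 36.4% of genes. Without plus-dox tumor 2 and off-dox tumor 4 its SD was 0.18, above the 0.11 of Mmp14. It was at 208, 161, 207 and 204 RPKM in no-dox tumors, 185, 243, 172 and 213 in plus-dox tumors and 147, 174, 184 and 183 in off-dox tumors. Its log2 fold changes were 0.06 ± 0.14, -0.16 ± 0.14 and -0.22 ± 0.14 (SE, adjusted p = 0.85, 0.55 and 1, edgeR) for plus-dox against no-dox, off-dox against no-dox and off-dox against plus-dox. Timp3 (chr10:85763157-85812250), the inhibitor that stays bound to the matrix, was at 46.1, 52.7, 29.9 and 44.0 RPKM in no-dox tumors, 59.7, 31.2, 66.4 and 57.6 in plus-dox tumors and 74.9, 44.9, 33.2 and 36.2 in off-dox tumors. Plus-dox tumors 1, 3 and 4 were above all no-dox tumors and plus-dox tumor 2 was among the lowest, and the log2 fold change was 0.33 ± 0.28 (SE, adjusted p = 0.58, edgeR), or 0.52 ± 0.25 without the 2 tumors that stood apart, when Timp3 was the 1 member of 10 whose groups did not overlap, beside 14% of all genes. Timp2 and Timp3 moved in opposite directions among tumors (r = -0.65, rho = -0.71, permutation p = 0.021, adjusted p = 0.062 over 45 pairs). The r was -0.55 without plus-dox tumor 2 and off-dox tumor 4 and -0.84 for deviations from the group means, although it was -0.34 without the 2 tumors farthest from the median of Timp2. The spans of Timp1 and Timp3 lie inside Syn1 and Syn3 on the other strand, and the reads carried no strand. Timp1 also overlaps a row named Gm on the other strand. On the same strand Timp1 overlaps Gm10921, and Timp2 overlaps BC100451.

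The summed levels of the 7 MMP and 3 TIMP members varied together from tumor to tumor. The 7 MMPs added up to 243 to 696 RPKM and the 3 TIMPs to 357 to 861 RPKM, both highest in plus-dox tumor 2. The ratio of these sums stayed between 0.66 and 0.85 in the 12 tumors, with means of 0.75 ± 0.06, 0.79 ± 0.02 and 0.76 ± 0.08 (SD, n = 4) in no-dox, plus-dox and off-dox tumors. The MMP sum leaves out Mmp7, which is not a member, averaged 138 RPKM and ran from 5.33 to 421 RPKM. The ratio thus describes the members and not all MMPs. The composition varied more than the ratio. Mmp9 made up 21.7% of the MMP sum in off-dox tumor 4 and 24.9% in plus-dox tumor 2, and Timp1 made up 67.0% and 68.2% of the TIMP sum there. Mmp14, the largest part of the MMP sum in every tumor, had its lowest share, 29.1%, in plus-dox tumor 2, and the ratio of Mmp9 to Timp1 ran from 0.07 to 0.29 across the 12 tumors.

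**Figure D3:**
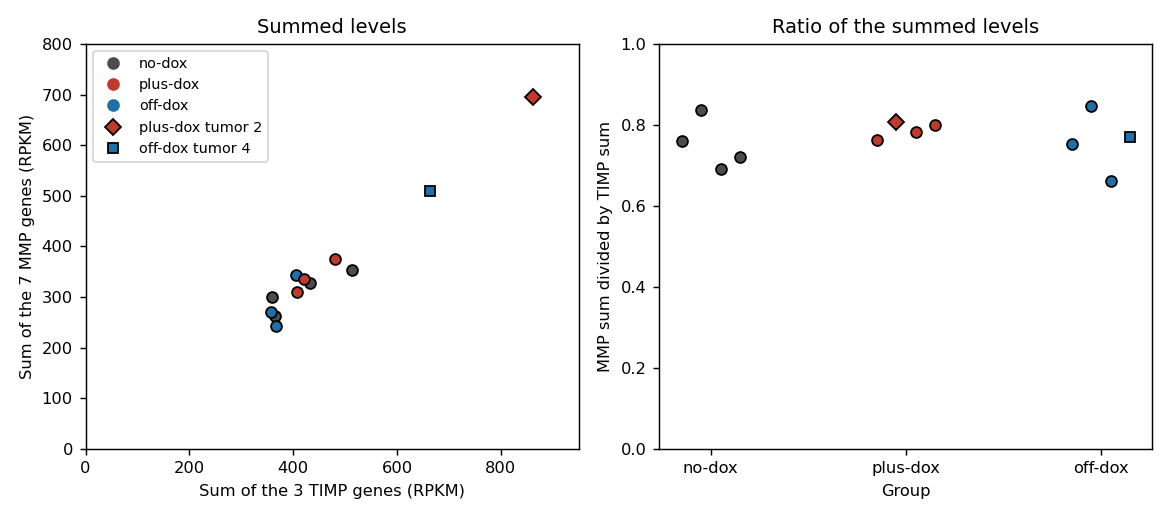
Left, sum of the 7 MMP genes (y axis) against sum of the 3 TIMP genes (x axis), in RPKM, 1 point per tumor. Right, the ratio of these sums by group, which stayed between 0.66 and 0.85 although the sums ran from 243 to 696 and from 357 to 861 RPKM. Mmp7, at 5.33 to 421 RPKM, is not among the 7 genes.

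Both tumors that stood apart were above the other 10 for 4 of the 10 members, Mmp9, Mmp13, Mmp14 and Timp1, beside 9.34% of 14548 genes, and below them for 1, Mmp11, beside 15.6% of genes. Against the median of the other 10 tumors, Mmp9 was 9.19-fold higher in plus-dox tumor 2 and 5.89-fold higher in off-dox tumor 4, Mmp13 5.46-fold and 4.76-fold, Timp1 3.76-fold and 2.84-fold, whereas Mmp14 was 1.42-fold higher in the first and at 200 against 143 RPKM in the second. Each was 1 of the 4 tumors of a dox-treated group, no no-dox tumor was as high for these 4 genes, and the part of dox in the values of these 2 tumors was not tested. With them left out, the r between Mmp9 and Mmp13 went from 0.86 (rho = 0.59, permutation p = 0.0047, adjusted p = 0.019) to 0.14, and that between Mmp9 and Mmp14 from 0.79 (rho = 0.51, permutation p = 0.0065, adjusted p = 0.023) to 0.04, so these relations rest on the 2 tumors.

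Mmp9 had as its most similar genes Atp6v0d2 (r = 0.98) and Acp5 (r = 0.98), a proton pump subunit and the tartrate-resistant acid phosphatase, both known from osteoclasts and some macrophages, and H2-M9 (r = 0.98). Over the other 10 tumors these r values were 0.87, 0.83 and 0.84. Acp5 was at 302 RPKM in plus-dox tumor 2 and 202 in off-dox tumor 4, against 26.4 to 61.3 in the other 10. Timp1 was most like Scin (r = 0.98), which encodes an actin-severing protein, Foxs1 (0.97) and Wipi1 (0.97). Mmp12 was most like Pitpnc1 (0.92), Rock1 (0.91) and Il7r (0.90), and Timp2 most like Ryk (0.91), Srsf9 (0.91) and Wdr82 (0.90). For Timp3 the first was Foxp4 (0.91), and for Mmp11 it was Stard5 (0.95).

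To see which cell types' markers moved with these genes, each member was set against the mean log2 CPM of 9 marker lists across the 12 tumors. Of 90 relations 11 passed an adjusted p of 0.1 in a permutation test, 9 positive and 2 negative, and 3 did so without plus-dox tumor 2 and off-dox tumor 4. Mmp3 and Mmp2 followed the fibroblast list, with r = 0.92 (rho = 0.90, permutation p = 4e-05, adjusted p = 0.0027) and r = 0.86 (rho = 0.82, permutation p = 0.00039, adjusted p = 0.009), and with 0.94 and 0.92 over the other 10 tumors. Without the 2 tumors farthest from the median of the list, r was 0.83 and 0.73. The list's 9 of 9 genes were detected, and its summed level was 924 to 1778 RPKM in no-dox, 1295 to 2471 in plus-dox and 1055 to 1183 in off-dox tumors. The summed fibroblast markers were thus highest in a plus-dox tumor, as were Mmp2 and Mmp3, and their part in the values of Mmp2 and Mmp3 was not tested.

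Mmp2, Mmp3, Mmp9 and Timp1 also followed the endothelial list, with r of 0.91 (rho = 0.89, permutation p = 6e-05, adjusted p = 0.0027), 0.80 (rho = 0.85, permutation p = 0.0006, adjusted p = 0.009), 0.87 (rho = 0.71, permutation p = 0.00051, adjusted p = 0.009) and 0.88 (rho = 0.75, permutation p = 0.0004, adjusted p = 0.009). Over the other 10 tumors these values were 0.82, 0.77, 0.70 and 0.72, and without the 2 tumors farthest from the list's median they were 0.77, 0.66, 0.76 and 0.81. The endothelial list, with 10 of 10 genes detected, summed to 48.2 to 66.3 RPKM in no-dox, 57.9 to 167 in plus-dox and 52.4 to 77.3 in off-dox tumors, and its top was plus-dox tumor 2. Mmp13 (r = 0.76, permutation p = 0.0085; rho = 0.48, permutation p = 0.12) and Mmp14 (r = 0.73, permutation p = 0.0098; rho = 0.66, permutation p = 0.024) passed with this list as well, at adjusted p = 0.076 and 0.08, but had r of 0.28 and 0.38 over the other 10 tumors.

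Against the epithelial list Mmp9 had r = -0.84 (rho = -0.64, permutation p = 0.0019, adjusted p = 0.025) and Timp1 had r = -0.77 (rho = -0.69, permutation p = 0.0056, adjusted p = 0.063). Without plus-dox tumor 2 and off-dox tumor 4, which were also the tumors farthest from the list's median, r was -0.31 and -0.13, so both relations rest on these tumors. The epithelial list summed to 2326 to 3137 RPKM in no-dox, 1366 to 2059 in plus-dox and 1079 to 2689 in off-dox tumors. By this sum the lowest was off-dox tumor 3 (1079), followed by plus-dox tumor 2 (1366) and off-dox tumor 4 (1570). The part of the epithelial list in the levels of Mmp9 and Timp1 was not tested. The T and NK list passed with Mmp9 (r = 0.72, rho = 0.70, permutation p = 0.0077, adjusted p = 0.076), but r was 0.49 over the other 10 tumors and 7 of its 8 genes averaged under 1 RPKM. No member passed with the macrophage, neutrophil, skeletal muscle, adipocyte or mast cell list.

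**Figure D4:**
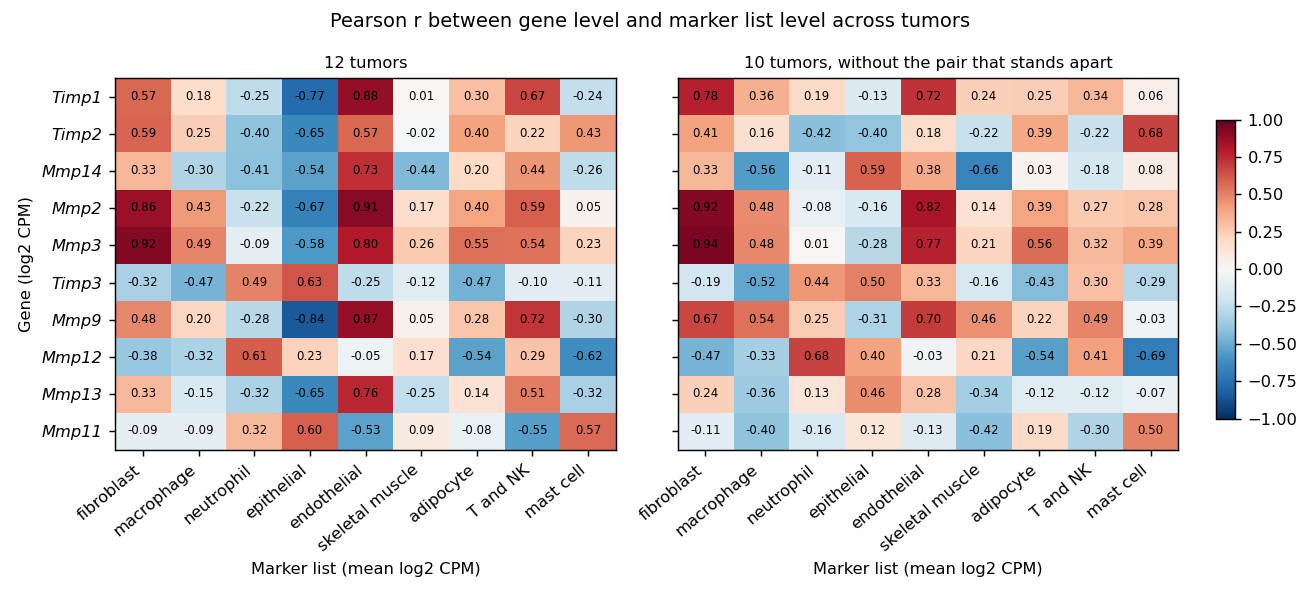
Pearson r between the log2 CPM of each gene (rows) and the mean log2 CPM of each marker list (columns), over 12 tumors (left) and over the 10 tumors other than plus-dox tumor 2 and off-dox tumor 4 (right). Mmp2 and Mmp3 kept r values of 0.92 and 0.94 with the fibroblast list on the right, while Mmp9 against the epithelial list went from -0.84 to -0.31.

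Mmp13, Mmp12 and Mmp3 belong to a cluster of MMP genes on chromosome 9, and their neighbors show how far genes of the cluster diverged. The cluster holds 10 MMP genes in 426.9 kb (chr9:7272514-7699416) with no other gene row between them, in the order Mmp13, Mmp12, Mmp1b, Mmp3, Mmp1a, Mmp10, Mmp8, Mmp27, Mmp20 and Mmp7. Mmp7, or matrilysin, a small MMP made by epithelial cells, was the most abundant of them, with 88.4 to 421 RPKM in no-dox tumors. It was lowest in the tumors where Mmp13 was highest, at 5.33 RPKM in plus-dox tumor 2 and 18.6 in off-dox tumor 4, against 77.7 to 421 in the other 10. Mmp10, or stromelysin 2, was highest there, at 14.8 and 8.63 RPKM against 0.54 to 3.51. Mmp1a, Mmp1b, Mmp8 and Mmp20 did not exceed 0.67 RPKM in any tumor.

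**Figure D5:**
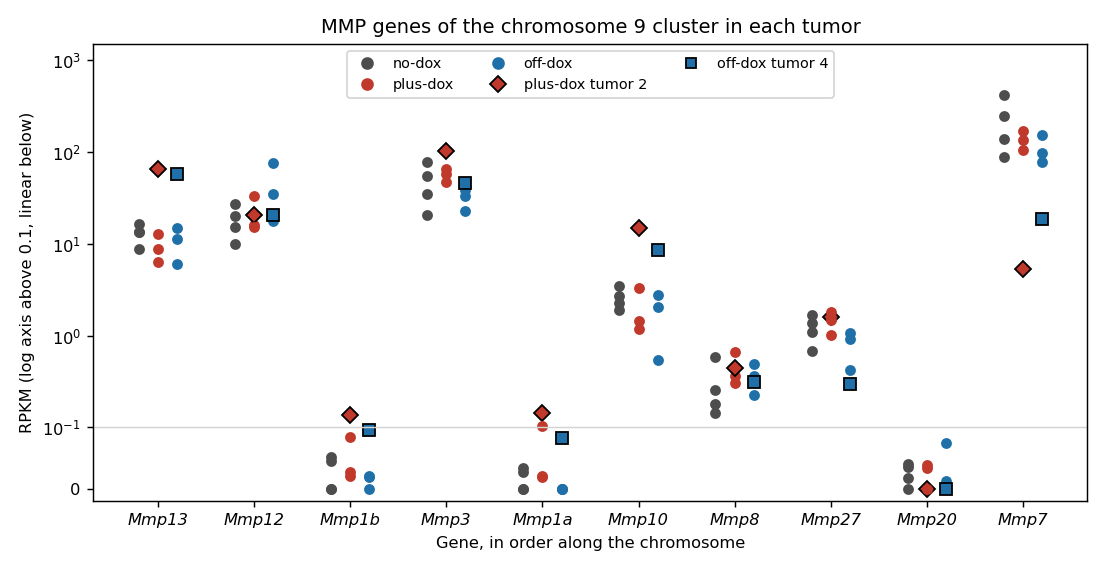
RPKM (log axis above 0.1, linear below) of the 10 MMP genes of the chromosome 9 cluster in each tumor, in the order of the genes along the chromosome. Plus-dox tumor 2 and off-dox tumor 4 were highest for Mmp13 and Mmp10 and lowest for Mmp7, whereas Mmp12 was at 20.6 in both.

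The start regions of these genes were searched for the letters TGAGTCA on either strand (TGACTCA when read on the other), the element bound by AP-1, a dimer of Jun and Fos proteins that is known to induce several MMP genes. In the window from 250 bases before to 50 bases after the start of the gene row, the letters were found in 4 of the 10 members (Mmp3, Mmp9, Mmp12 and Mmp13), in 7 of the 10 genes of the cluster and in 1020 of 22630 gene rows (4.51%). The members hold them 46, 101, 44 and 35 bases before the start, in the order named. The 6 windows below, from the mm9 genome and read along the gene, show the element in capitals in those 4 members and in the cluster genes Mmp10 and Mmp7, which lay at opposite ends of their ranges in the 2 tumors that stood apart.
Mmp3, chr9:7445766-7445792: gaagcaattaTGAGTCAgttttcgggt
Mmp9, chr2:164773640-164773666: acacacacgcTGAGTCAgcataagcct
Mmp12, chr9:7347320-7347346: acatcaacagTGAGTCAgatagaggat
Mmp13, chr9:7272469-7272495: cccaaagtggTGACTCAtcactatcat
Mmp10, chr9:7502269-7502295: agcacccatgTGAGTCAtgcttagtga
Mmp7, chr9:7692017-7692043: agtgtgcaaaTGAGTCAcctatttcca
All 6 lie on the plus strand. The genes with the letters include Mmp9, Mmp13 and Mmp10, high in both of those tumors, Mmp7, low in both, and Mmp12, at 20.6 RPKM in both. Mmp1a, Mmp1b and Mmp19 hold the letters too, and their windows are not shown. Binding of AP-1 was not measured, and its part in these levels was not tested.

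The rest of the MMP system was described by 5 lists of related genes. Of 17 genes listed as other MMPs and Timp4, 16 were tested and 0 passed the limits in any comparison with edgeR, DESeq2 or limma-voom. With edgeR an unadjusted p under 0.05 was found for 1 (plus-dox against no-dox), 1 (off-dox against no-dox) and 2 (off-dox against plus-dox). The shares of all genes in these comparisons were 13.7%, 20.4% and 3.06%. Mmp7 had log2 fold changes of -1.11 ± 0.82 and -1.37 ± 0.83 (SE, adjusted p = 0.54 and 0.37, edgeR) in plus-dox and off-dox tumors against no-dox. The next most abundant, Mmp23 and Mmp28, had 0.44 ± 0.24 and -0.72 ± 0.44 in plus-dox and -0.12 ± 0.24 and -0.61 ± 0.44 in off-dox tumors. In both tumors that stood apart, 3 of the 17 (17.6%), Mmp7, Mmp15 and Mmp28, were below the other 10 tumors, beside 15.6% of 14548 genes. Above the other 10 were 3 as well, Mmp1b, Mmp10 and Mmp24, beside 9.34% of genes. Mmp1b and Mmp24 averaged 0.04 and 0.18 RPKM, under the 0.25 RPKM limit set for those 14548 genes.

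Of the activators, surface partners and inhibitors, 0 of 12 tested genes passed in any comparison with edgeR. In the same order of comparisons, 2, 1 and 2 had an unadjusted p under 0.05, beside 13.7%, 20.4% and 3.06% of all genes. Limma-voom called 1 gene, the endocytic receptor Lrp1, which takes up MMPs, for plus-dox and for off-dox against no-dox, and DESeq2 called it for the former, so these calls turn on the tool. Bsg, or basigin, which induces MMPs in neighboring cells, was at 346 to 966 RPKM, with -0.40 ± 0.27 and -0.45 ± 0.27 (SE) on the log2 scale in plus-dox and off-dox against no-dox. It was at 417 RPKM in plus-dox tumor 2 and 346 in off-dox tumor 4, below the 421 to 966 of the other 10. Lcn2, or lipocalin 2, which binds Mmp9 in humans, had -0.90 ± 0.73 and -1.27 ± 0.74, and it was at 14.8 RPKM in plus-dox tumor 2 and 32.2 in off-dox tumor 4 against 106 to 538 in the other 10. Cd44, a hyaluronan receptor that docks Mmp9 at the cell surface, had -0.01 ± 0.27 and -0.06 ± 0.27 and was highest in those tumors, at 199 and 193 RPKM. Plaur and Plat, the urokinase receptor and tissue plasminogen activator of the plasmin cascade that activates MMPs, named after their values were seen, were highest there too. Both tumors were above the other 10 for 3 of the 13 listed genes, Cd44, Plaur and Plat, beside 9.34% of 14548 genes. They were below them for 2, Bsg and Lcn2, beside 15.6%.

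Of 14 ADAM and ADAMTS proteases, relatives that shed membrane proteins and cut proteoglycans, 1 passed with edgeR, for off-dox against no-dox, beside 1.34% of all genes. DESeq2 without moderated fold changes called Adamts14 there as well. Adamts15, which cuts the proteoglycans aggrecan and versican, was at 4.88, 4.69, 3.32 and 6.34 RPKM in no-dox tumors, 4.48, 4.14, 3.95 and 4.62 in plus-dox tumors and 2.56, 2.44, 2.69 and 2.46 in off-dox tumors. The 4 off-dox tumors were below the 8 others. Its log2 fold change was -0.89 ± 0.16 (SE, adjusted p = 0.079, edgeR) against no-dox and -0.74 ± 0.16 (adjusted p = 1) against plus-dox. DESeq2 did call it against plus-dox, as 1 of 6 genes over the whole table, or of 4 with moderated fold changes. Limma-voom did not. The call against no-dox held in 11 of 23 alternative settings and was lost, for one, with a replicate block (adjusted p = 0.13, within a range of 0.00023 to 1.00 over the 23). The most abundant of the list, Adam9, Adam10 and Adam15, had changes between -0.20 and 0.28.

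Of 14 matrix proteins that MMPs cut, 0 passed in any comparison with edgeR. In the order of comparisons above, 6, 2 and 4 had an unadjusted p under 0.05, beside 13.7%, 20.4% and 3.06% of all genes. DESeq2 called Bgn and Col1a1 for plus-dox against no-dox and Spp1 for off-dox against no-dox, and limma-voom called Col1a1 and Spp1. The median log2 fold change of the 14 was 0.42 for plus-dox against no-dox, with 11 of 14 above 0, beside 51.4% of all genes. It was -0.13 for off-dox against plus-dox, with 11 of 14 below 0, beside 50.1% of all genes. Spp1, or osteopontin, a secreted protein that Mmp3 and Mmp7 cut, was the most abundant, at 1824 to 5502 RPKM, with -0.66 ± 0.24 (SE, adjusted p = 0.33, edgeR) in plus-dox and -0.81 ± 0.24 (adjusted p = 0.12) in off-dox against no-dox. Fn1, fibronectin, had 0.40 ± 0.28 and 0.54 ± 0.28, and Col3a1, the gene most like Mmp2 and Mmp3, had 0.60 ± 0.35 and -0.20 ± 0.34, and -0.80 ± 0.35 for off-dox against plus-dox.

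Of 15 transcription factors and cytokines that induce MMP genes, 1 passed with edgeR, Il1b for off-dox against no-dox, beside 1.34% of all genes. DESeq2 without moderated fold changes and limma-voom called Il1a, Il1b and Runx2 there, among 615 and 643 genes in all. With moderated fold changes DESeq2 called Il1a and Il1b. Limma-voom also called Runx2 for plus-dox against no-dox, so these calls turn on the tool. Il1b, an inflammatory cytokine made mainly by myeloid cells, was at 16.3, 12.7, 11.2 and 13.7 RPKM in no-dox tumors, 17.1, 21.2, 17.3 and 10.1 in plus-dox tumors and 20.9, 29.6, 21.7 and 24.0 in off-dox tumors. All 4 off-dox tumors were above all 4 no-dox tumors, with a log2 fold change of 0.87 ± 0.21 (SE, adjusted p = 0.088, edgeR), a call that held in 9 of 23 alternative settings and had an adjusted p of 0.14 with the replicate block (0.0067 to 1.00 over the 23). The neutrophil list, with 9 of 10 genes in the files and none of these at 0 in every tumor, summed to 40.6 to 57.3 RPKM in no-dox and 30.0 to 62.7 in off-dox tumors. Of these 9 genes, 2 passed in the same comparison, the receptors Cxcr2 and Csf3r, with 0.90 and 0.78 on the log2 scale, while the other 7 ran from -1.41 (Ltf) to 2.49 (Camp). Each of the 2 calls held in 10 of 23 alternative settings and was lost with the replicate block (adjusted p = 0.13, within a range of 0.0018 to 1.00 for Cxcr2 and 0.0025 to 1.00 for Csf3r), and the part of these markers in the level of Il1b was not tested. Junb, Tgfb1 and Jun, the most abundant of the list, had -0.24 ± 0.24, 0.56 ± 0.39 and -0.09 ± 0.21 in plus-dox against no-dox. Tgfb1 was at 81.5 RPKM in plus-dox tumor 2 and 76.6 in off-dox tumor 4, above the 27.3 to 38.1 of the other 10 tumors. Fosl1, an AP-1 subunit named after its values were seen, was at 19.4 and 14.7 RPKM there against 4.51 to 10.5. The other AP-1 genes of the list were not above the rest. Jun was at 28.9 and 19.3 against 24.2 to 43.9, Fos at 18.5 and 14.9 against 18.4 to 56.6, and Junb at 125 and 141 against 87.0 to 204. Both tumors were above the other 10 for 5 of the 15 genes, beside 9.34% of 14548 genes. They were below them for 2, Ets2 and Tnf, beside 15.6%.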

How the data were processed

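The study measured RNA of 12 tumors with poly-A selected, unstranded libraries. The authors mapped the reads to mm9 with TopHat (version 1.4.1), and deposited, for each of 22630 condensed RefSeq gene models, an expected count from base-wise coverage of its unambiguous exonic span and an RPKM per mapped read total. How duplicate and multiply mapping reads were treated is not given in the sources used here, so members with near-identical copies would be uncertain. Starts in the files count from 0 and are given here from 1.

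Counts were rounded and tested with edgeR (4.0.16; TMM, at least 10 counts summed over the tumors, quasi-likelihood test, 1 fit of the 3 groups without covariates); alternatives used DESeq2 (1.42.0) and limma (3.58.1). Log2 CPM used a prior count of 2. Relations used 100000 permutations. Scripts were tested on simulated data. Tumors of 1 group differed well beyond sampling noise, so none was a copy.

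The genes and lists were chosen with earlier results of these data known. Named were the 10 members, the 3 most abundant and any called gene of each list, the 3 most similar genes per member, and Trp53; others are marked. A further allele that all tumors share is not reported here.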

Additional observations from a re-analysis of the deposited data

Results flagged for a closer look

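Of 30 sets of 4 tumors (10 genes in 3 groups), 6 held a tumor farther from its group than Dixon's 95% critical value for the gap over the range allows, and chance flags about 1 in 20. Of these, 5 were plus-dox tumor 2 or off-dox tumor 4 as the highest of their group. Mmp9 was at 173 RPKM in plus-dox tumor 2, where the next tumor of the group had 32.5, and at 111 RPKM in off-dox tumor 4, where the next had 22.2. Mmp13 was at 65.8 RPKM and Mmp14 at 202 RPKM in plus-dox tumor 2, where the next had 12.8 and 151. Timp1 was at 444 RPKM in off-dox tumor 4, where the next had 188. The sixth was low: Timp2 was at 161 RPKM in no-dox tumor 2, where the next lowest no-dox tumor had 204.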

How the results depend on the processing

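No member was called in any of 22 alternative fits of each comparison, each at the adjusted p limit of 0.1, nor at 0.05, and the joint test of the 3 groups called 0 members in any setting. Over the whole table the joint test called 0 genes, but 1127 with DESeq2, 1229 with limma-voom and 296 without off-dox tumor 1. What moved was the number of genes called over the whole table. For plus-dox against no-dox it was 0, but 128 with DESeq2, 90 with DESeq2's moderated fold changes and 112 with limma-voom. For off-dox against no-dox it was 235, but 615, 396 and 643 with these 3, 122 without the count filter, 365 with at least 10 counts in every tumor, 472 without plus-dox tumor 2 and off-dox tumor 4, 3 in the 8 tumors of the pair alone, and 0 at an adjusted p of 0.05, with a replicate block, or with the share counted on genes as covariate. The share separated the no-dox tumors from the rest, so with it as covariate a difference from no-dox and the share cannot be told apart. The loss of calls in that fit therefore cannot be read. The replicate block rests on numbers that, as given below, did not pair the tumors. For off-dox against plus-dox the number of genes called was 0, but 6 and 4 with DESeq2 without and with moderation. Leaving out each tumor in turn gave 0 to 3, 0 to 789 and 0 to 1 genes in the 3 comparisons. Of the 12 tumors, 10 moved the 235 calls by more than 1.5 times when left out: the count was 0 for each of no-dox 1, 2 and 4, for plus-dox 4 and for off-dox 2, 3 and 4, it was 1 for no-dox 3 and 19 for plus-dox 3, and it was 789 for off-dox 1.

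Members whose groups did not overlap numbered 0 in each comparison, and 0 to 1, 0 to 1 and 0 to 3 when each tumor was left out. Without plus-dox tumor 2 and off-dox tumor 4 they numbered 1, 1 and 3, and on the RPKM scale 1 for off-dox against plus-dox. The 11 relations of members to marker lists were 3 without these tumors and 2 to 16 when each tumor was left out, the lowest without plus-dox tumor 2.

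Of 660 alternative log2 fold changes of members, 627 kept their direction and 33 reversed it. With plus-dox tumor 2 and off-dox tumor 4 left out, the reversed values were -0.48 (Mmp13) and -0.041 (Timp2) for plus-dox against no-dox, -0.27 (Mmp13), -0.22 (Mmp14) and -0.17 (Timp1) for off-dox against no-dox, and 0.22 (Mmp13) for off-dox against plus-dox. With limma-voom they were -0.29 (Mmp13), -0.12 (Mmp14), and 0.42 (Mmp13) and 0.028 (Timp1), in the same order of comparisons. With the share counted on genes as covariate they were -0.24 (Mmp12) for plus-dox against no-dox, and 0.12 (Mmp9) and 0.64 (Mmp13) for off-dox against plus-dox. With the replicate block they were -0.019 (Mmp14) for off-dox against no-dox and 0.021 (Mmp13) for off-dox against plus-dox. Leaving out each tumor gave ranges across 0 for Mmp12 (-0.073 to 0.54), Mmp13 (-0.48 to 1.18) and Timp2 (-0.038 to 0.12) in plus-dox against no-dox. In off-dox against no-dox it did so for Mmp2 (-0.30 to 0.066), Mmp3 (-0.62 to 0.0034), Mmp13 (-0.27 to 1.15), Mmp14 (-0.22 to 0.14), Timp1 (-0.17 to 0.72) and Timp3 (-0.14 to 0.30). In off-dox against plus-dox it did so for Mmp9 (-1.83 to 0.84), Mmp11 (-0.32 to 0.013), Mmp13 (-1.13 to 1.31) and Timp1 (-0.86 to 0.34). The cause of these reversals was not tested.

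The replicate numbers did not pair the tumors. Same-numbered tumors of different groups had a mean correlation of deviations of -0.09 (2 of 12 pairs over 0.1), tumors with different numbers 0.04, and 2 of 12 tumors were closest to their own number. With 4 tumors a group and the within-group SD of Mmp9 (1.27 on the log2 scale) or Mmp13 (1.22), differences of the size seen could not be told from tumor-to-tumor spread. Whole-tumor RNA gives no cell of origin.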

Other observations

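Outside the comparisons above, Ctsk, which encodes the cysteine protease cathepsin K known from osteoclasts and some fibroblasts and was chosen after its values were seen, was at 127 RPKM in plus-dox tumor 2 and 98.9 RPKM in off-dox tumor 4, against 26.4 to 63.5 RPKM in the other 10 tumors. Grem1, the gene most like Mmp13, was at 26.4 and 19.8 RPKM in these tumors, against 2.57 to 6.70 RPKM in the others. Rarres2 was at 476 RPKM in plus-dox tumor 2 and 129 RPKM in off-dox tumor 4, with 54.8 to 260 RPKM in the others.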
